A study of Danio rerio with 18 samples.

Results

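The natriuretic peptides and cardiac stretch genes are a small set of genes whose messages are made by heart muscle and respond to the load on the ventricular wall. Their 6 members, chosen by symbol, were nppa, nppb, ankrd1a, ankrd1b, xirp1 and csrp3. Of these, 5 matched a row among the 15268 genes of the expression table, and ankrd1a, which matched none, was not analysed here. The libraries came from regenerating zebrafish heart tissue of the TAB line, a hybrid of AB and Tubingen fish, taken after the apex of the ventricle had been cut off. RNA was sequenced in 2 libraries per stage, on the day of amputation (0 dpa, days post amputation) and at 6 and 9 dpa. All 3 groups had the same amputation, so 0 dpa is heart tissue of freshly operated fish and no unoperated or sham group was compared. The paper describes the tissue of all 3 stages as newly regenerated. It does not state whether the same part of the heart was taken at 0 dpa as later. The labels give neither the age of the fish nor the number of hearts in a library. H3K9ac and H3K9me3 libraries of the same stages and libraries of PAC2 fibroblasts were not analysed here.

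Nppa and nppb encode the precursors of the atrial and B-type natriuretic peptides, hormones that heart muscle cells release when the chamber wall is stretched. The peptides bind receptors with a guanylyl cyclase domain and raise cyclic GMP in vessels and kidney, while the receptor encoded by npr3 takes them up and clears them. The other members act inside the muscle cell. Csrp3 encodes muscle LIM protein of the Z-disc, the anchor between neighbouring sarcomeres, and xirp1 encodes an actin-binding Xin repeat protein of the intercalated disc, which joins heart muscle cells end to end. Ankrd1a and ankrd1b encode cardiac ankyrin repeat proteins, which in mammals bind titin and also enter the nucleus. In mammals most of these genes are induced when the heart is overloaded or injured.

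Expression was given as FPKM, fragments per kilobase of transcript relative to the mapped fragments, so levels of different genes can be set side by side. The table does not carry the read counts behind the values, and the depth of each value is unknown. An exact 0 can be a failed estimate here, since 6 dpa replicates 1 and 2 give hbaa1, an abundant haemoglobin gene, as 0. Myl7, a myosin light chain that marks heart muscle, was between 13278 and 30405 FPKM in the 6 libraries, which fits the labelled tissue. The replicates of 0 dpa lay farthest apart. Over 18 genes of the working myocardium the geometric mean was 1282 FPKM in 0 dpa replicate 1 and 603 in replicate 2, and lay between 605 and 970 in the other 4 libraries. The 19 matched macrophage and neutrophil genes, none of them at 0, summed to 1115 FPKM in 0 dpa replicate 1 and 6626 in replicate 2, against 1793 to 3606 in the other 4 libraries. Not all genes of this sum followed it. Mpeg1.1 had 13.9 and 171 FPKM in 0 dpa replicates 1 and 2, while mpx (1.92 and 2.03 FPKM) and lyz (87.4 and 105 FPKM) differed far less. In bulk tissue, fewer cells of a type and less RNA per cell cannot be told apart.

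The members spanned a wide range of levels, and their order was the same in each library. Nppa was the highest in every library, between 1848 and 4482 FPKM, and ranked between 34 and 113 among all genes. Nppb followed with 349.9 to 1560 FPKM and csrp3 with 263 to 671 FPKM. Nppb lay above csrp3 within each of the 6 libraries, while the ranges of these 2 genes over the libraries of 6 dpa, and over those of 9 dpa, overlapped. Xirp1 was far below them, at 20.1 to 30.4 FPKM. Ankrd1b was listed at 0 in 4 of the 6 libraries, at 0.137 FPKM in 6 dpa replicate 2 and at 0.416 FPKM in 9 dpa replicate 1. It was below the average of 3 FPKM asked for in the test, so 4 members were tested and ankrd1b has no fold change.

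**Figure D1:**
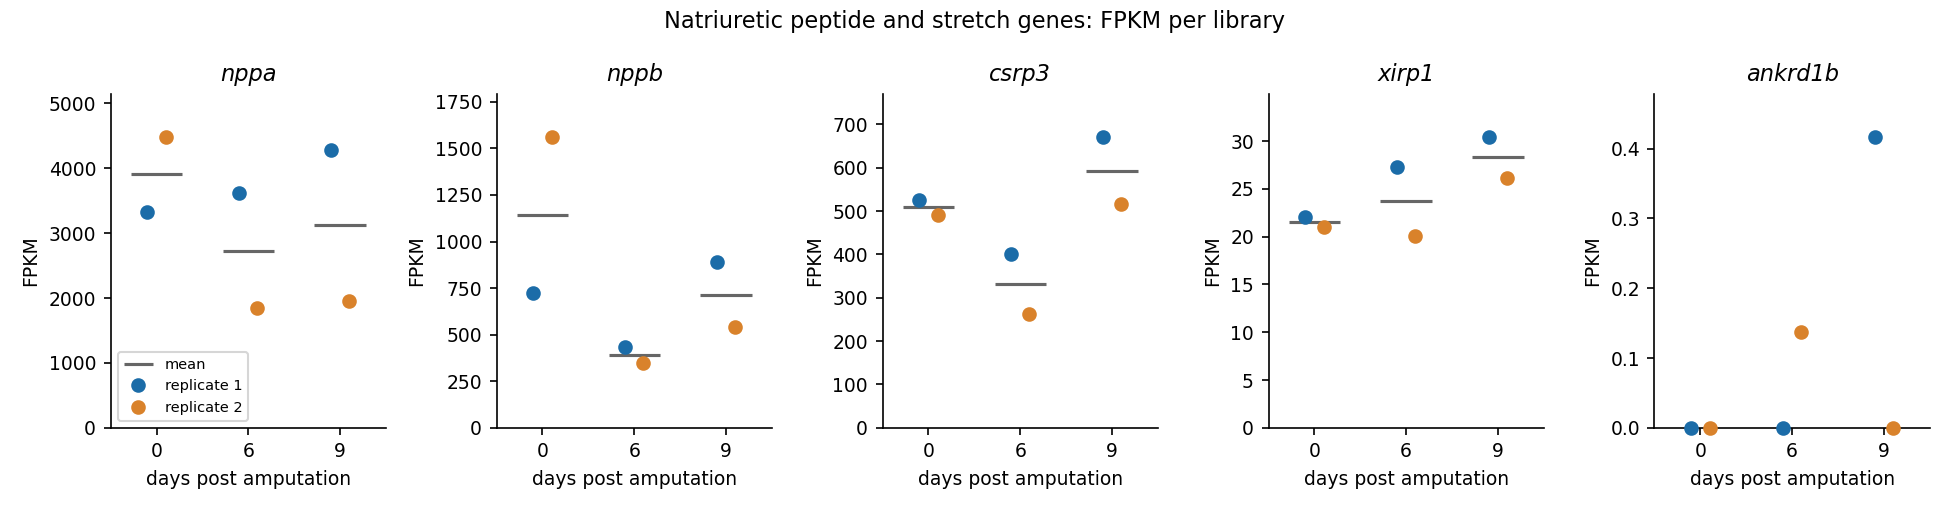
FPKM of the 5 members in each library (linear axis from 0, points for replicates, bar for the mean of the 2 replicates, no bar for ankrd1b) by days post amputation. Nppb has its highest value, 1560 FPKM, in 0 dpa replicate 2 and its lowest values, 436 and 349.9, at 6 dpa, while nppa overlaps between all time points.

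For each pair of time points the question was which members differed in level. Genes were compared with limma on log2(FPKM + 1), all 6 libraries entering together, and fold changes are on that scale. The criteria for a call, those of the study, were a P value below 0.05 before adjustment, a change of 1.5-fold or more and a mean of 3 FPKM or more in 1 of the compared time points. Benjamini-Hochberg adjusted p-values over all genes tested are given beside them. The replicates are described as biological, and with 2 per time point an exact permutation test cannot give a p-value below 0.333. Both comparisons with 0 dpa use the same 0 dpa libraries.

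At 6 dpa nppb had an estimated level about 2.72-fold lower than at 0 dpa, and it was the member with the largest change. Nppb had 436 and 349.9 FPKM at 6 dpa, against 724 and 1560 FPKM at 0 dpa. Both libraries of 6 dpa lay below both of 0 dpa. The log2 fold change was -1.44 (limma adjusted p = 0.179, from 0.0562 to 0.517 over the settings tried), so the call did not hold with the adjusted p-value. Its standard error was 0.44 and its 95% interval ran from -2.46 to -0.42. The size rested on the 0 dpa replicates, being -1.99 on leaving out 0 dpa replicate 1 and -0.89 on leaving out its partner, and nppb was called both times. The call was lost without 6 dpa replicate 2 (-1.28). It was also lost with haemoglobin removed, a setting that then rescaled every library to the same summed FPKM (-1.10, limma adjusted p = 0.252). The library with the highest nppb, 0 dpa replicate 2, was also the one with the highest macrophage and neutrophil sum. Its myocardial mean of 603 FPKM was close to the 605 FPKM of 6 dpa replicate 2, the library with the lowest nppb. The part of such differences between libraries in the result was not tested.

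Nppa, its neighbour in the genome, did not meet the criteria. It had 3616 and 1848 FPKM at 6 dpa, against 3329 and 4482 FPKM at 0 dpa. One library of 6 dpa lay between those of 0 dpa, so the groups overlapped. The log2 fold change was -0.58 (standard error 0.47, 95% interval -1.67 to 0.51, limma adjusted p = 0.595), and this interval allows a fall as large as that of nppb as well as a rise. It was -1.06 on leaving out 6 dpa replicate 1 and -0.10 on leaving out 6 dpa replicate 2, -0.24 with haemoglobin removed and -0.15 when scaled to myocardial genes. In RefSeq's order of genes on assembly GRCz12tu, nppb and nppa are next to each other. The level of nppa over that of nppb within a library was 8.29 and 5.28 at 6 dpa, against 4.60 and 2.87 at 0 dpa. It was higher in both libraries of 6 dpa than in either of 0 dpa, and this ratio does not depend on the scaling between libraries. At 9 dpa it was 4.82 and 3.63, within the range of 0 dpa in 1 library and above it in the other.

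Of the tested members whose proteins act inside the muscle cell, csrp3 had lower values at 6 dpa and xirp1 had similar ones. Csrp3 had 400.3 and 263 FPKM at 6 dpa, against 526 and 492 FPKM at 0 dpa. The groups did not overlap, but the log2 fold change of -0.65 missed the P value asked for (standard error 0.33, limma adjusted p = 0.391). Its interval ran from -1.41 to 0.11. With median-ratio scaling csrp3 met the criteria (-0.68, limma adjusted p = 0.217), and on leaving out 6 dpa replicate 1 it did too (-0.95), while the value was -0.34 on leaving out 6 dpa replicate 2, -0.31 with haemoglobin removed and -0.21 when scaled to myocardial genes. Xirp1 had 27.3 and 20.1 FPKM at 6 dpa, against 22.1 and 21.0 FPKM at 0 dpa, and both values of 0 dpa lay between those of 6 dpa. Its log2 fold change was 0.12 with a 95% interval from -0.50 to 0.74, and it was -0.10 without 6 dpa replicate 1. The symbol xirp1 stands beside 2 Ensembl identifiers in the gene name table, and how reads were divided between them is not known.

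Between 6 and 0 dpa, 1 of the 4 tested members was called, in a comparison where 15.4% of the 9275 genes tested were called, 7.86% as higher and 7.51% as lower. The median log2 fold change of the 4 members was -0.61, beside -0.0028 over all genes tested. Libraries did not overlap for 2 of the 4 members, and for 45.7% of all genes tested. None of the members passed with the adjusted p-value by limma (0 of 4, with 1 of 4 under an unadjusted 0.05), where 0.712% of all genes did.

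At 9 dpa no member met the criteria against 0 dpa. Nppb had 890 and 539 FPKM at 9 dpa, against 724 and 1560 FPKM at 0 dpa, and 1 library of 9 dpa lay within the range of 0 dpa. The log2 fold change was -0.62 (standard error 0.44, 95% interval -1.64 to 0.40, limma adjusted p = 0.612). On leaving out 0 dpa replicate 1 it was -1.17 and met the criteria (limma adjusted p = 0.133), and on leaving out 0 dpa replicate 2 it was -0.06. Nppa had 4290 and 1955 FPKM at 9 dpa, against 3329 and 4482 FPKM at 0 dpa. The replicates of 9 dpa differed by more than those of 0 dpa, and the log2 fold change of -0.42 (95% interval -1.50 to 0.67) was 0.15 without 9 dpa replicate 2.

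Xirp1 had 30.4 and 26.2 FPKM at 9 dpa, against 22.1 and 21.0 FPKM at 0 dpa. Both libraries of 9 dpa were above both of 0 dpa, by a log2 fold change of 0.37 (standard error 0.27, 95% interval -0.24 to 0.99, limma adjusted p = 0.611) that was under the 1.5-fold limit. Csrp3 had 671 and 515 FPKM at 9 dpa, against 526 and 492 FPKM at 0 dpa. The groups overlapped, with a log2 fold change of 0.21 and a 95% interval from -0.55 to 0.97. In this comparison 0 of 4 members were called by limma (0 also under an unadjusted 0.05), where 12.5% of 9015 genes were, 6.82% as higher and 5.72% as lower. With the adjusted p-value 0.366% of them were called. Libraries did not overlap for 1 of 4 members and for 41.1% of the genes tested. The median log2 fold change of the members was -0.10, beside -0.03 over all genes.

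Between the later time points csrp3 had higher values at 9 dpa and was called before adjustment, and nppb had higher values without being called. Csrp3 had 671 and 515 FPKM at 9 dpa, against 400.3 and 263 FPKM at 6 dpa, with no overlap. Its log2 fold change was 0.85 (standard error 0.33, 95% interval 0.10 to 1.61), and the limma adjusted p of 1.0 (0.55 to 1.0 over the settings tried) did not pass. The call was lost when 6 dpa replicate 2 (0.55), 9 dpa replicate 1 (0.67) or 9 dpa replicate 2 (1.04) was left out, and it held when 6 dpa replicate 1 was (1.16). Csrp3 is also made in skeletal muscle. Of 9 skeletal marker genes tested between 9 and 6 dpa, 2 were called lower at 9 dpa and none higher. Over all genes these shares were 1.42% and 1.99%. Between 6 and 0 dpa 6 of the 9 tested were called higher at 6 dpa, beside 7.86% of all genes. The 23 matched skeletal genes summed to 374 and 346 FPKM at 9 dpa, against 457 and 321 FPKM at 6 dpa. Between 3 and 8 of them were listed at 0 in these 4 libraries, 85.0 to 331 FPKM of the sums came from acta1a, and myhz2, a fast skeletal myosin, was at 0.0968 and 0.0232 FPKM at 9 dpa, against 0.230 and 1.09 FPKM at 6 dpa. Their part in the level of csrp3 was not tested.

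Nppb had 890 and 539 FPKM at 9 dpa, against 436 and 349.9 FPKM at 6 dpa. Both libraries of 9 dpa were above both of 6 dpa, and the log2 fold change was 0.82 (standard error 0.44, 95% interval -0.20 to 1.84, limma adjusted p = 1.0). With the 0 dpa libraries kept out of the fit, or either of them left out, the same value met the criteria (limma adjusted p between 0.552 and 0.583). Xirp1 had a log2 fold change of 0.26 (-0.060 when scaled to myocardial genes) and nppa of 0.16 (-0.17 on that scale and -0.019 without haemoglobin), with overlapping libraries in both cases. The direction of nppa turned when 6 dpa replicate 2 (-0.32) or 9 dpa replicate 1 (-0.40) was left out. Of the 4 members 1 was called between 9 and 6 dpa, where 3.41% of 9157 genes were called, 1.99% as higher and 1.42% as lower. With the adjusted p-value 0.0328% of genes and none of the members were called. Libraries did not overlap for 2 of 4 members and for 36.5% of the genes tested. The median of the members was 0.54, beside -0.01 over all genes.

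**Figure D2:**
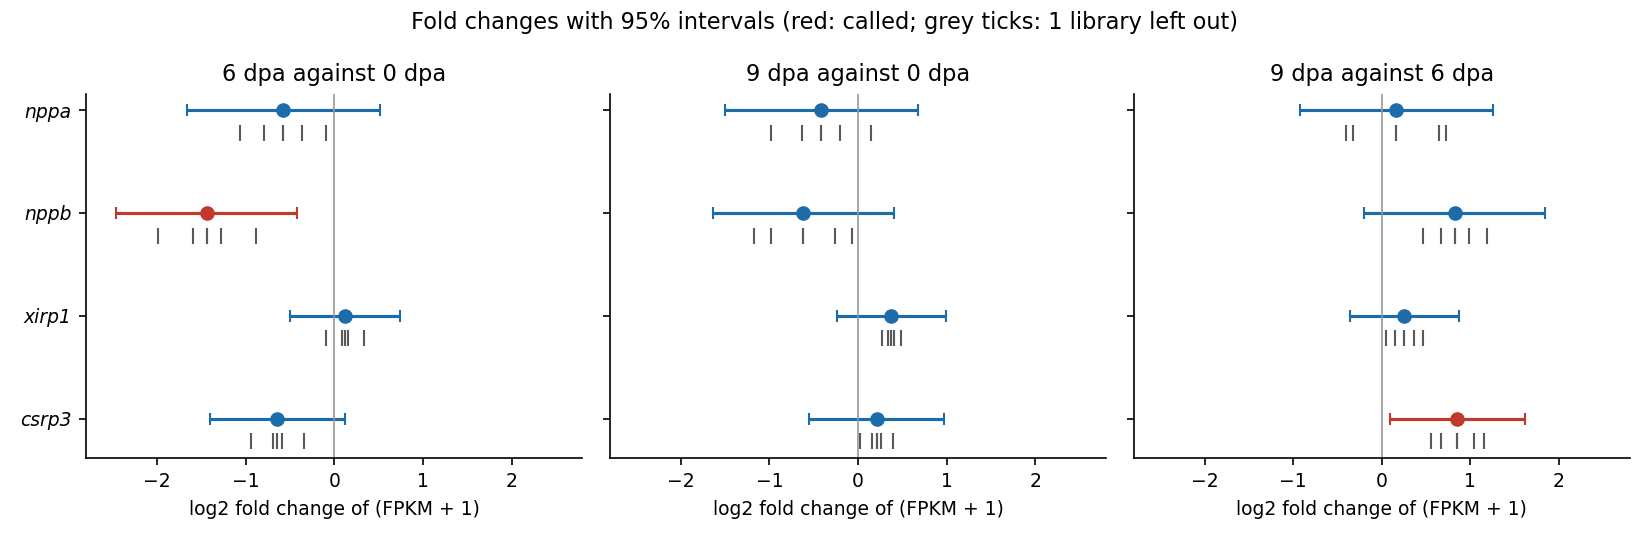
Log2 fold changes of (FPKM + 1) for the 4 tested members in the 3 comparisons, with 95% intervals from limma. Red marks a call by the study's criteria, and grey ticks give the value with each of the 6 libraries left out in turn; nppb is called at -1.44 between 6 and 0 dpa and csrp3 at 0.85 between 9 and 6 dpa.

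Heart muscle makes the messages of the members, though csrp3 is also made in skeletal muscle. Each tested member was therefore also set against the geometric mean of the 18 myocardial genes of the same library. This comparison was chosen after the data were seen. On this scale nppb was 62.2 and 57.8% of the myocardial mean at 6 dpa, against 56.5 and 259% at 0 dpa. The libraries overlapped, since 0 dpa replicate 1 was below both of 6 dpa, and the log2 fold change of -1.01 was no longer called (limma adjusted p = 0.486). At 9 dpa nppb was 91.8 and 77.9%, above both libraries of 6 dpa, with a log2 fold change of 0.50 that was not called.

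Nppa was 260 and 743% of the myocardial mean in the 0 dpa libraries, 515 and 305% in those of 6 dpa and 442 and 283% in those of 9 dpa. The values of both later time points lay between those of the 0 dpa replicates. Csrp3 was 41.0 and 81.6% in the 0 dpa libraries, 57.0 and 43.5% in those of 6 dpa and 69.1 and 74.5% in those of 9 dpa, and its log2 fold change between 9 and 6 dpa was 0.53 and not called (limma adjusted p = 0.867). Xirp1 was 1.72 and 3.49% in the 0 dpa libraries, 3.89 and 3.32% in those of 6 dpa and 3.14 and 3.78% in those of 9 dpa. For all 4 members the 0 dpa replicates differed more on this scale than the libraries of either later time point. Scaling to these genes moved the median of all genes to 0.39 between 6 and 0 dpa and to -0.32 between 9 and 6 dpa. Removing haemoglobin and rescaling all libraries to equal sums moved it to 0.32 and -0.18. In the values as given, summed FPKM ran from 803421 in 6 dpa replicate 2 to 1330110 in 0 dpa replicate 1. Each fold change was estimated from that gene's own values, so the removal could reach the fold changes of other genes only through the rescaling. Rescaling to equal sums without the removal was not tested.

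**Figure D3:**
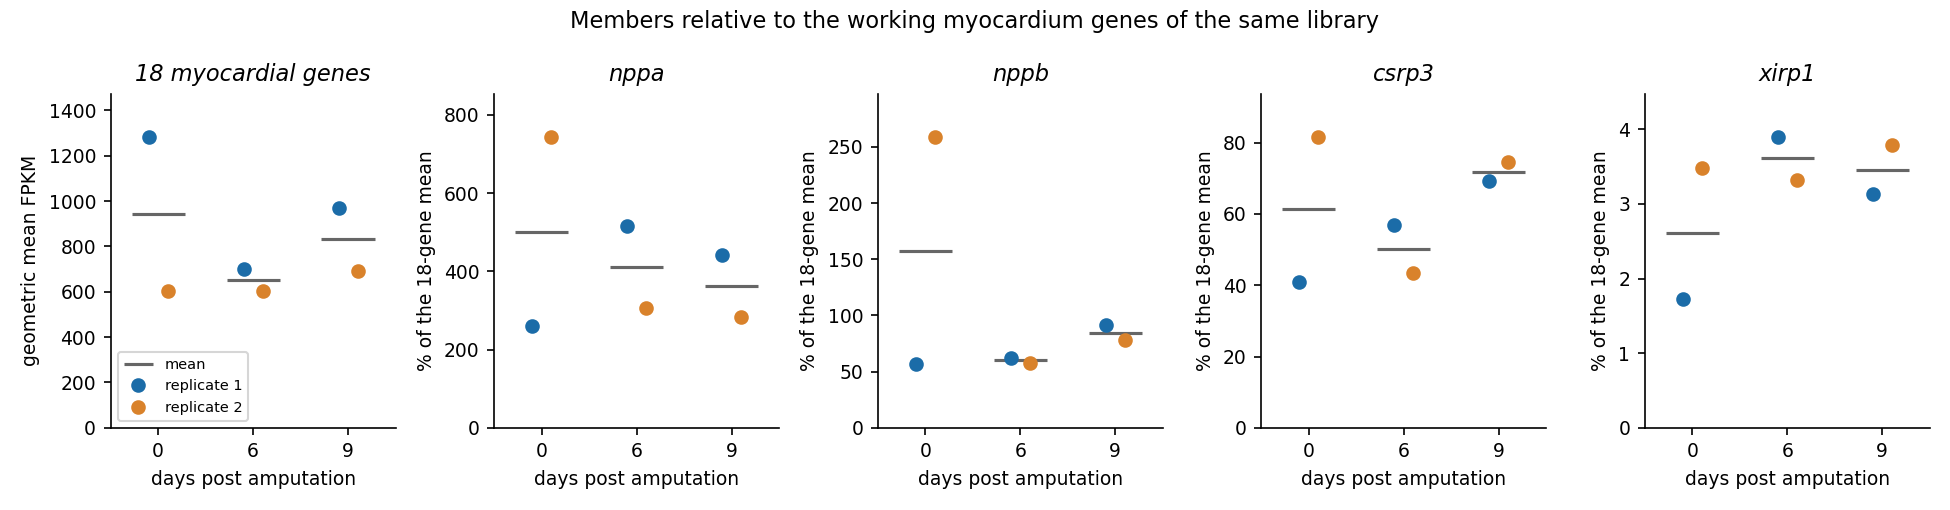
Left, geometric mean FPKM of 18 working myocardium genes per library; right, each member as a percent of that mean in the same library, by days post amputation (points for replicates, bars for means). Both values of 6 dpa for nppb, 62.2 and 57.8%, sit just above the 56.5% of 0 dpa replicate 1 and far below the 259% of replicate 2.

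Other genes of the natriuretic peptide pathway were described from a list. It did not hold nppal, the neighbour of nppb on the side away from nppa in the RefSeq order. Of 19 genes listed, 9 matched and 4 passed the FPKM minimum between 6 and 0 dpa. Of these, 2 were called lower and none higher, and the median log2 fold change was -0.87, beside 7.51% called lower and a median of -0.0028 over all genes tested. Npr3, the clearance receptor, had 22.4 and 8.53 FPKM at 0 dpa, 2.64 and 5.50 FPKM at 6 dpa and 4.42 and 2.55 FPKM at 9 dpa. All 4 later libraries were below both of 0 dpa. The log2 fold change was -1.62 for 6 against 0 dpa (limma adjusted p = 0.175) and -1.77 for 9 against 0 dpa (adjusted p = 0.205, 0.108 to 0.76 over the settings). At 6 dpa the call was lost on leaving out 0 dpa replicate 1 (-0.97) or 6 dpa replicate 1 (-1.20).

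Nppc, which encodes the C-type natriuretic peptide made mainly outside heart muscle, was listed at 0 in 6 dpa replicate 1 and had 3.67 FPKM in replicate 2, against 8.70 and 6.30 FPKM at 0 dpa. It was called lower at 6 dpa (-1.96, limma adjusted p = 0.252), and the value was -0.85 and not called without the library listed at 0. The call was also lost without either library of 0 dpa (-1.76 and -2.17), with haemoglobin removed (-1.74), on the myocardial scale (-1.66) and with a term for the replicate number. The guanylyl cyclase receptor gene npr1a had between 1.24 and 2.15 FPKM in all libraries and was too low to test. Furina and furinb, whose proteases cut peptide precursors, had log2 fold changes of -0.12 and 0.24 between 6 and 0 dpa and of -0.25 and 0.54 between 9 and 0 dpa, with none called. The first value of furina was 0.13 without 0 dpa replicate 1, 0.15 with haemoglobin removed and 0.22 on the myocardial scale, and that of furinb was -0.08 without 6 dpa replicate 1. Of the 4 genes tested between 9 and 0 dpa, npr3 was the 1 called, where 12.5% of all genes were called, 5.72% as lower. Nppc had 2.82 and 0.867 FPKM at 9 dpa, against 8.70 and 6.30 FPKM at 0 dpa, without overlap. Its log2 fold change of -1.66 missed the criteria (limma adjusted p = 0.396) and met them under 5 of the 15 settings: a minimum mean of 1 FPKM, the compared time points alone, without either library of 6 dpa and without 9 dpa replicate 1 (-2.17). Between 9 and 6 dpa, 3 genes of this list were tested and 0 were called by limma, with 0 under an unadjusted 0.05. Over all genes 3.41% were called there.

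Several genes whose proteins share the Z-disc and the intercalated disc with csrp3 and xirp1 were lower at 6 and 9 dpa than at 0 dpa. Of 50 listed, 40 matched and 30 were tested between 6 and 0 dpa, with 9 called lower and 2 higher (median -0.34), beside 7.51% lower and 7.86% higher over all genes. Between 9 and 0 dpa 6 of 30 were called lower and 1 higher (median -0.05), beside 5.72% and 6.82%. Genes that mark cell types moved in the same comparisons. Of working myocardium genes 3 of 19 were called lower and none higher at 6 dpa (median -0.53). At 9 dpa 1 of 18 was called lower, mb (median -0.10). Each 9 dpa library gave an exact 0 for 1 of the 19 matched myocardium genes, while the earlier libraries gave none. Such a 0 can be a failed estimate, and its part in the call of mb was not tested. Of fibroblast and matrix genes 11 of 14 were called higher at 6 dpa (median 1.47) and 9 of 14 at 9 dpa (median 1.34). At 6 dpa 3 of 11 epicardial and 5 of 11 skin epithelial genes were called higher. Of red blood cell genes 9 of 18 were called higher and 4 lower at 6 dpa, where hbaa1, listed at 0, was among those called. At 9 dpa 8 of 19 red blood cell genes were called higher and 2 lower. The part of these marker genes in the values of the Z-disc genes was not tested. Tcap, the titin cap protein telethonin, had 725 and 498 FPKM at 0 dpa, 122 and 129 FPKM at 6 dpa and 203 and 96.9 FPKM at 9 dpa. It changed by -2.25 (limma adjusted p = 0.0635) and -2.09 (adjusted p = 0.109) on the log2 scale, and was called lower at both times. Cryabb, an alpha-B crystallin and small heat shock chaperone, had 15.4 and 12.99 FPKM at 0 dpa, 2.56 and 0.704 FPKM at 6 dpa and 2.40 and 0.701 FPKM at 9 dpa. Its log2 fold changes were -2.62 and -2.65 (limma adjusted p = 0.0635 and 0.0866). The calls of tcap and cryabb, made before adjustment, held under all 15 settings tried.

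Bag3, a co-chaperone that clears damaged Z-disc proteins, was lowest at 6 dpa, as csrp3 was. It had 20.0 and 19.9 FPKM at 6 dpa, against 106 and 62.4 FPKM at 0 dpa, a log2 fold change of -1.97 that passed with the adjusted p-value (limma adjusted p = 0.0464, 0.0267 to 0.212 over the settings). At 9 dpa it had 38.7 and 33.7 FPKM, above 6 dpa by 0.82 (limma adjusted p = 1.0) and below 0 dpa by a log2 fold change of -1.15 (called, though not without 9 dpa replicate 2, -1.05). It was the gene of this list called between 9 and 6 dpa, 1 of 29, where 3.41% of all genes were called. That call was lost without any 1 of the 4 libraries compared (0.72 to 0.92) and on the myocardial scale (0.51). Nexn, an actin-binding nexilin of the Z-disc, went the other way, with 107 and 87.3 FPKM at 9 dpa, against 49.2 and 25.4 FPKM at 0 dpa. The log2 fold change was 1.43 between 9 and 0 dpa (limma adjusted p = 0.199) and held under all 15 settings, whereas 0.94 between 6 and 0 dpa was lost without 0 dpa replicate 2 (0.48), without 6 dpa replicate 1 (0.70) and without either library of 9 dpa or both (0.94). Ppp3r1a, a regulatory subunit of the phosphatase calcineurin, was called higher at 6 dpa (0.67), but not without 6 dpa replicate 1, 6 dpa replicate 2 or 0 dpa replicate 1.

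Csrp1a, a relative of csrp3 singled out after its values were seen, had 54.4 and 42.8 FPKM at 0 dpa, 29.2 and 24.5 FPKM at 6 dpa and 27.1 and 26.8 FPKM at 9 dpa. It was called lower at both times (-0.83 and -0.82). The level of csrp3 over that of csrp1a within a library was 9.66 and 11.5 in the 0 dpa libraries, 13.7 and 10.8 in those of 6 dpa and 24.7 and 19.2 in those of 9 dpa. Both libraries of 9 dpa were thus above the other 4. The calls of csrp1a were lost when libraries were scaled to the myocardial genes (-0.41 and -0.72), at 6 dpa also with haemoglobin removed (-0.50) and without 6 dpa replicate 2 (-0.71), and at 9 dpa also without either library of 9 dpa (-0.82 and -0.81).

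Titin is bound along its length by the ankyrin repeat proteins, by LIM proteins and by ubiquitin ligases, and of 27 such partners listed 15 matched and 12 were tested. Between 6 and 0 dpa 3 were called lower and 1 higher, and between 9 and 0 dpa 2 were lower and 1 higher, where 15.4% and 12.5% of all genes were called in either direction. Fhl2b, a four-and-a-half LIM domain protein, had 205 and 99.6 FPKM at 0 dpa, 35.1 and 24.5 FPKM at 6 dpa and 47.7 and 13.7 FPKM at 9 dpa. Its log2 fold changes were -2.25 and -2.43 (limma adjusted p = 0.128 and 0.1695). Fhl3b of the same family had 29.8 and 18.7 FPKM at 0 dpa, 8.65 and 8.55 FPKM at 6 dpa and 9.37 and 8.56 FPKM at 9 dpa (-1.36 and -1.31, limma adjusted p = 0.078 and 0.129). Trim55a, a muscle RING-finger ubiquitin ligase of the sarcomere, had 4.09 and 4.73 FPKM at 0 dpa, 13.8 and 17.8 FPKM at 6 dpa and 23.0 and 18.7 FPKM at 9 dpa. It rose by 1.63 and 2.01 on the log2 scale, which passed with the adjusted p-value (limma adjusted p = 0.0391 and 0.0259, up to 0.218 and 0.213 over the settings). Its relatives trim55b (-0.16 and 0.38), trim63a (-0.18 and 0.03) and trim63b (0.46 and 0.86) had higher levels and were not called. The calls of fhl2b, fhl3b and trim55a, made before adjustment, held under all 15 settings in both comparisons. In the main fits fhl2b and fhl3b did not pass with the adjusted p-value. Between 9 and 6 dpa 0 of 12 were called by limma, with 0 under an unadjusted 0.05, where 3.41% of all genes were called.

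**Figure D4:**
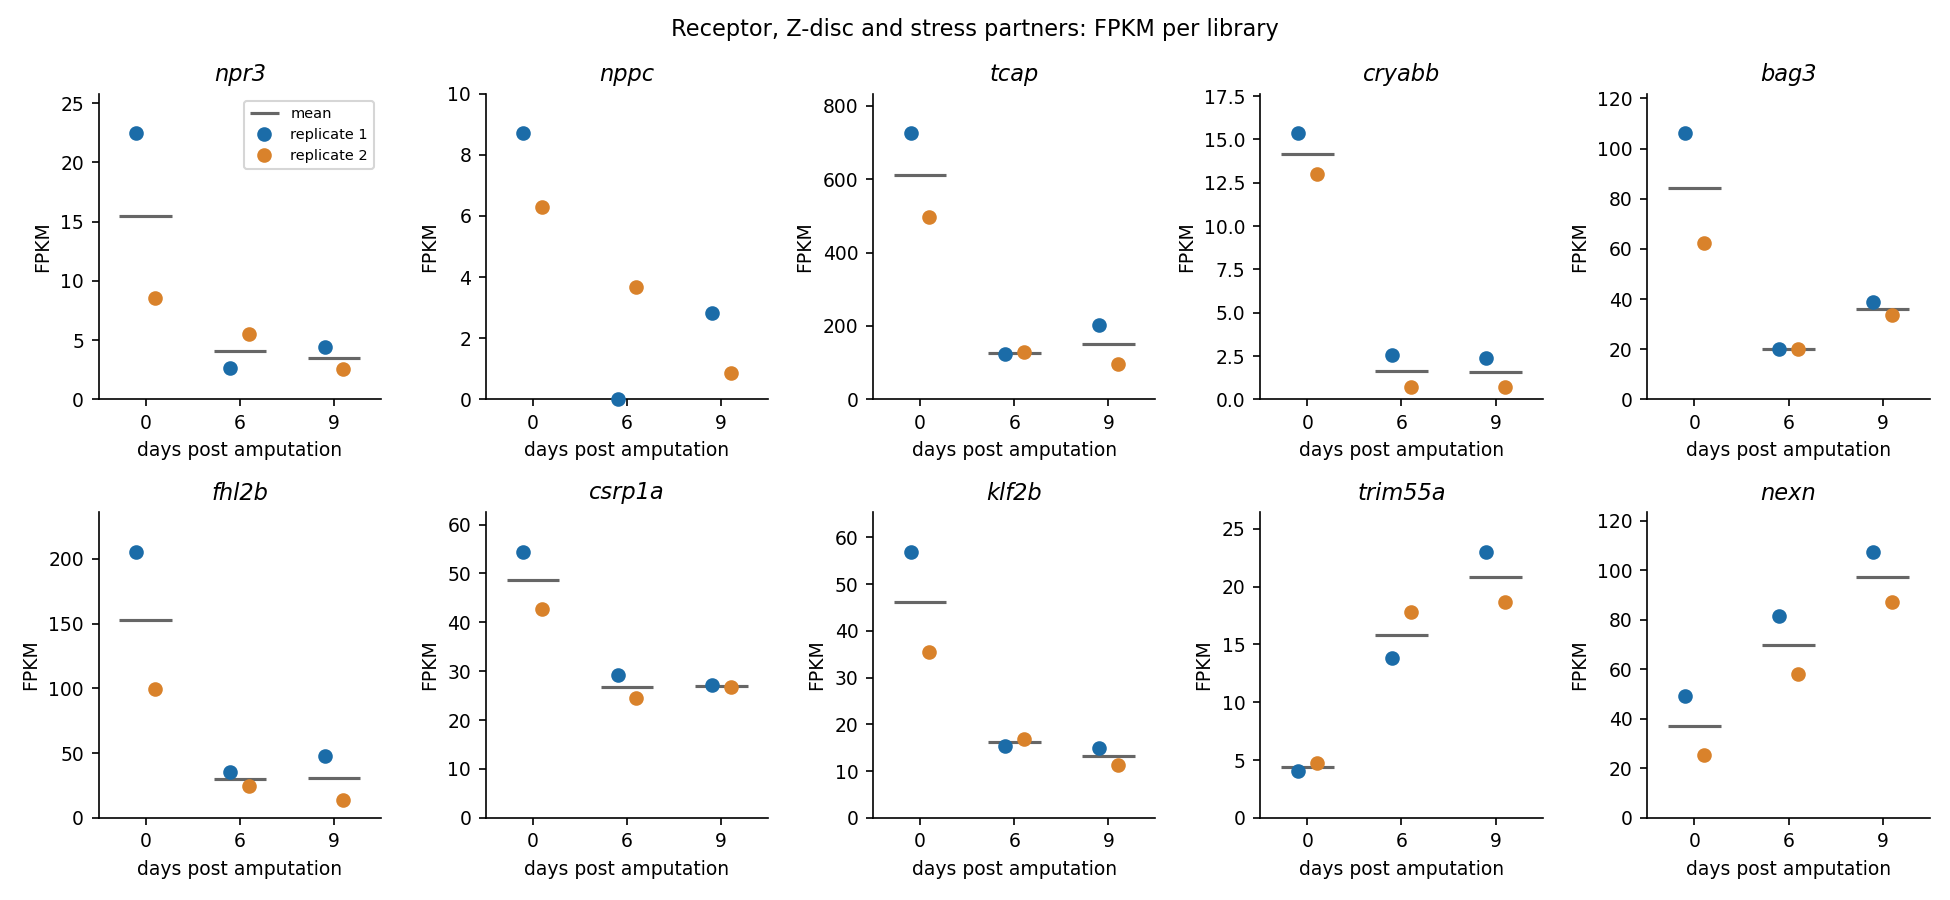
FPKM in each library of 10 partner genes named in the text (linear axes from 0, points for replicates, bars for means, no bar for nppc) by days post amputation. Tcap, cryabb, bag3, fhl2b and klf2b have both 0 dpa libraries above the 4 later ones, while trim55a and nexn have both 0 dpa libraries below them.

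Of the genes that sense or transmit stretch, lists of Yap targets and of mechanosensitive channels each had 1 gene called between 6 and 0 dpa, where 15.4% of all genes were. In the list of Yap, Taz and Tead genes with their targets, 1 of 14 tested was called between 6 and 0 dpa, cyr61l2, which encodes a matricellular protein of the CCN family. It had 43.9 and 26.2 FPKM at 0 dpa, 14.0 and 20.5 FPKM at 6 dpa and 19.0 and 14.9 FPKM at 9 dpa (-0.96 and -0.97). Both calls were lost without 0 dpa replicate 1 (-0.60 and -0.61), that of 6 dpa without 6 dpa replicate 1 (-0.70) that of 9 dpa without 9 dpa replicate 2 (-0.81), and both on the myocardial scale (-0.54 and -0.87). Of 6 mechanosensitive channel genes tested, trpv4, a calcium-permeable channel, was called lower at 6 dpa (-0.75), and not without 0 dpa replicate 1 (-0.47), without either library of 6 dpa (-0.86 and -0.64), without either library of 9 dpa or both (-0.75), with haemoglobin removed (-0.42) or when scaled to the myocardial genes (-0.33). Between 9 and 0 dpa 0 of 6 channels were called by limma, with 0 under an unadjusted 0.05, and the same counts held between 9 and 6 dpa. Between 9 and 6 dpa 0 of 13 genes of the Yap list were called, again with 0 under an unadjusted 0.05. Over all genes 12.5% were called between 9 and 0 dpa and 3.41% between 9 and 6 dpa.

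Among 20 tested regulators of heart muscle and serum response genes, 1 was called lower between 6 and 0 dpa and again between 9 and 0 dpa. This was not above the share over all genes, of which 7.51% and 5.72% were called lower. The regulator called was klf2b, a transcription factor that responds to blood flow in endothelium. It had 56.9 and 35.5 FPKM at 0 dpa, 15.4 and 16.9 FPKM at 6 dpa and 14.8 and 11.4 FPKM at 9 dpa. It changed by -1.42 and -1.71 on the log2 scale (limma adjusted p = 0.0857 and 0.0806), called under all 15 settings. Klf2a of the same family had 166 and 22.9 FPKM at 0 dpa and was not called, with log2 fold changes of -0.13 and -0.33. Of endothelial genes 5 of 17 tested were called lower at 6 dpa and 3 of 17 at 9 dpa, with none called higher. Beside them stand the same 7.51% and 5.72% of all genes. The part of endothelial genes in the result for klf2b was not tested. Over all genes tested between 9 and 6 dpa, 1.42% were called lower and 1.99% higher. Of the 20 regulators tested there, tbx2b, a T-box repressor, was called lower (-1.06) and srfb, a serum response factor, was called higher (0.70). Neither passed with the adjusted p-value (limma, 1.0 for both). The call of tbx2b was lost without 6 dpa replicate 1 (-0.98) or 9 dpa replicate 1 (-1.06), and that of srfb without 6 dpa replicate 1 (0.52), 9 dpa replicate 1 (0.75) or 9 dpa replicate 2 (0.64), with haemoglobin removed (0.52) and on the myocardial scale (0.38).

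The genes most like each member over the 6 libraries were found by the root-mean-square distance between log2(FPKM + 1) profiles centred on their means. The search was among the 9363 genes whose mean reached 3 FPKM at any time point. With only 6 points such likeness is a description. For nppa the nearest were zgc:110222 (distance 0.109), si:dkey-228a15.1, me1, which encodes malic enzyme, gng12a and ap1m1 (0.20). Nppb itself came at rank 2088 from nppa, at a distance of 0.47. The nearest to nppb were zgc:153631 (0.238), LOC103910026, homeza, il4r.1 and pnp5b (0.299), and nppa came at rank 157 of them. This distance grows with the range of a gene's own values, and by Pearson's r il4r.1 was the closest of the 5 to nppb (0.993), against 0.986 for zgc:110222 to nppa.

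For csrp3 the nearest were si:dkey-85k7.7 (0.0821), ydjc, cycsb, which encodes cytochrome c, dpp6 and dusp22a (0.141). Cycsb had 1629 and 1211 FPKM at 0 dpa, 1000.3 and 710 FPKM at 6 dpa and 2042.5 and 1299 FPKM at 9 dpa. For xirp1 the nearest were ttc33 (0.0468), dhrs11b, mob3c, pex7 and tfam (0.0762), the last a mitochondrial transcription factor. No member was among the 5 nearest genes of another member, and csrp3 and xirp1 were 0.335 apart.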

How the data were processed

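The 6 heart mRNA libraries, made from total RNA, were sequenced as paired reads. The authors aligned them to danRer10 with STAR and converted them to FPKM with Cufflinks, while the submitters' processing notes name Cuffdiff, which can also scale between libraries; whether it did, versions and the gene annotation are not given in the sources used here. The deposited table holds these FPKM values, used as given. Columns were matched to samples by title, and none was left over. The study's own test needs counts, so limma 3.58.1 in R 4.3.3 was used on log2(FPKM + 1), a scale that understates changes of low genes. Time point was the only term, with a trended prior (degrees of freedom 3 residual, 4.66 prior at the median), for the 9363 genes whose mean reached 3 FPKM at any time point. The procedure was tested on simulated data.

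Members, lists and tests were chosen with earlier results of these data known. Named genes are the members, their 5 nearest profiles, the receptor and protease genes of the peptides, and per list and comparison up to 2 called genes in each direction with the largest change. Relatives of some named genes are given beside them. Other settings, 14 set at the start and 1 added after the data were seen, were a pseudocount of 0.1, a minimum mean of 1 FPKM or none, median-ratio scaling, removal of 11 haemoglobin genes with rescaling, fits of the compared time points, a replicate term, no trend, each library left out, and scaling to 18 myocardial genes (added). The setting named haemoglobin removed brought all libraries to the same summed FPKM after the removal, so it changed the scaling of every gene. Figures used Python 3.11.15 and matplotlib 3.10.9.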

Additional observations from a re-analysis of the deposited data

How the results depend on the processing

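Of 180 fold changes of members under other settings, 159 kept their direction and their side of the criteria. Another 7 lost a call, 7 gained one and 7 changed sign, each of the last without a call. Settings that changed only the FPKM minimum, the replicate term, the trend or the libraries outside a comparison could not turn a sign. With 1, 0 and 1 of 4 members called in the main fits, keeping the side of the criteria mostly meant staying uncalled. The count of 1 member called between 6 and 0 dpa became 2 with median-ratio scaling and 2 with the replicate block, and 0 with haemoglobin removed and 0 when scaled to myocardial genes. It ran from 0 to 2 with 1 library left out. The count of 0 between 9 and 0 dpa ran from 0 to 1 with 1 library left out. The count of 1 between 9 and 6 dpa became 2 in the fit of the compared time points and 0 when scaled to myocardial genes, and ran from 0 to 2 with 1 library left out. With the replicate block csrp3 was called between 6 and 0 dpa (-0.65, limma adjusted p = 0.263) and nppc was not (-1.96). Replicate numbers share no stated origin, and differences between replicates 1 and 2 correlated at -0.0847 to 0.0903 across genes between time points.

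The sign of nppa between 9 and 6 dpa turned with haemoglobin removed (-0.019) and when scaled to myocardial genes (-0.17), and ran from -0.40 to 0.73 with 1 library left out. Between 9 and 0 dpa it ran from -0.98 to 0.15. Xirp1 ran from -0.10 to 0.33 between 6 and 0 dpa, and was -0.060 between 9 and 6 dpa when scaled to myocardial genes. Furina between 6 and 0 dpa was 0.15 with haemoglobin removed and 0.22 when scaled to myocardial genes, and ran from -0.37 to 0.13 with 1 library left out, and furinb ran from -0.076 to 0.56.

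Over all genes the counts of 1426, 1131 and 312 ran from 985 to 2300, 586 to 1871 and 168 to 630. With the adjusted p-value 66, 33 and 3 ran from 11 to 208, 2 to 198 and 2 to 125. The split of 729 higher and 697 lower between 6 and 0 dpa was 1750 and 343 with haemoglobin removed and 1061 and 186 when scaled to myocardial genes. For 9 against 0 dpa, 615 and 516 became 964 and 358, or 382 and 207. For 9 against 6 dpa, 182 and 130 became 96 and 265, or 31 and 178, and 282 and 98 with median-ratio scaling. The Z-disc counts of 11, 7 and 1 ran from 7 to 13, 3 to 9 and 0 to 5, and the regulator counts of 1, 1 and 2 from 1 to 7, 1 to 7 and 0 to 2. The cause was not tested.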
